A study of Mus musculus with 96 samples.

Results

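The 10 genes described here control entry into the cell cycle from G1: 3 D-type cyclins (Ccnd1, Ccnd2, Ccnd3), 2 E-type cyclins (Ccne1, Ccne2), the kinases Cdk4 and Cdk6, and the inhibitors Cdkn1a, Cdkn1b and Cdkn2c. They were chosen by name, as the rows of the count table that carry these symbols, and all 10 were found among the 49466 genes of the table. D-type cyclins bind Cdk4 and Cdk6, and the complexes phosphorylate the retinoblastoma protein, which frees E2F factors. E-type cyclins are themselves E2F targets and bind Cdk2 to start DNA replication. Cdkn1a (p21) and Cdkn1b (p27) bind cyclin complexes and hold back Cdk2, whereas Cdkn2c (p18) binds Cdk4 and Cdk6 and keeps D-type cyclins off them. In red cell development, Ccnd3 is known from mouse work to set the number of divisions before terminal maturation, and Cdk6 has been described in mouse erythroid cells as a kinase that is shut off on maturation.

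The cells were C57/Bl6J fetal liver progenitors of embryonic day 14.5, depleted of lineage-positive cells and sorted on Kit, CD71 and CD24, with 1 cell per well of a 96-well plate and full-length cDNA libraries (Smart-seq2). The 4 sort gates held 24 wells each: BFUE (burst-forming units), the earlier erythroid progenitors; 2 intermediate gates at 25 to 35% and 50 to 60% of CD71 and CD24 staining, called the lower and the upper intermediate here; and CFUE (colony-forming units), the later progenitors. No genetic change or treatment is given for any gate, and the labels name no animal or pool. Each gate therefore counts as 1 sample without a replicate, and no p-value is given. The BFUE gate was also divided at 100 CPM of Cd34, a stem and multipotent cell gene. CPM are reads of a gene per 1000000 reads counted in genes.

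In all, 91 wells with 50000 or more reads were kept: 8 Cd34-high BFUE, 15 Cd34-low BFUE, 21 lower intermediate, 24 upper intermediate and 23 CFUE wells. They held 947458 to 3785903 reads each, 11974810 to 36422769 summed per group. Intervals are exact 95% intervals, Poisson for CPM and conditional binomial for ratios, and cover the counting of reads only. The reads carry no molecular identifiers, so copies of a molecule cannot be told apart. As counting intervals for molecules, these intervals may therefore be too narrow, and they leave out the differences between cells. The spread between wells is given beside them, as are the values of the upper plate rows (A to D) and of the lower ones (E to H). The wells of a gate stood in 3 columns of the plate, so the gate cannot be told apart from its columns. Tfrc (CD71) and Cd24a, stained for the sort, were at 830 and 1168 CPM in CFUE wells, against 154 and 126 CPM in BFUE wells.

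In GRCm38 with the GENCODE M21 annotation, all 10 are protein-coding genes. The D-type cyclins are Ccnd1 at chr7:144929931-144939925, Ccnd2 at chr6:127125162-127152193 and Ccnd3 at chr17:47505051-47599691. The E-type cyclins are Ccne1 at chr7:38097984-38107534 and Ccne2 at chr4:11191351-11204779. The kinases are Cdk4 at chr10:127063534-127067920 and Cdk6 at chr5:3341485-3531008. The inhibitors are Cdkn1a at chr17:29090976-29100727, Cdkn1b at chr6:134920401-134925513 and Cdkn2c at chr4:109660876-109667189.

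Some wells stood apart from their labels. The 8 Cd34-high BFUE wells had 12.7 CPM of the erythroid factor Gata1, against 411 CPM in Cd34-low BFUE wells, and 2366 CPM of the myeloid enzyme gene Mpo, against 13.6 CPM. Cd34 itself was at 1036 CPM or more in each of them and at 5.16 CPM or less in each of the other 83 wells, so no well lay near the split. The CFUE well D10 had 3.17 CPM of Gata1, against 265 CPM or more in the other 22 CFUE wells, and the fewest reads of any kept well. Its erythroid genes Hba-a1 and Slc4a1 were not low, at 1697 and 137 CPM, against medians of 647 and 23.8 CPM in the other CFUE wells. D10 also held fewer genes, 6361 against 7422 or more. It had the lowest Ccnd3 (5.28 CPM), Ccne1 (3.17 CPM) and Cdk4 (351 CPM) of the CFUE wells and their highest Ccne2 (512 CPM). Results that involve CFUE are therefore also given without D10 where it moved them. The r with the cell cycle scores within CFUE, and that with the reads of a well, were not computed without D10.

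**Figure D1:**
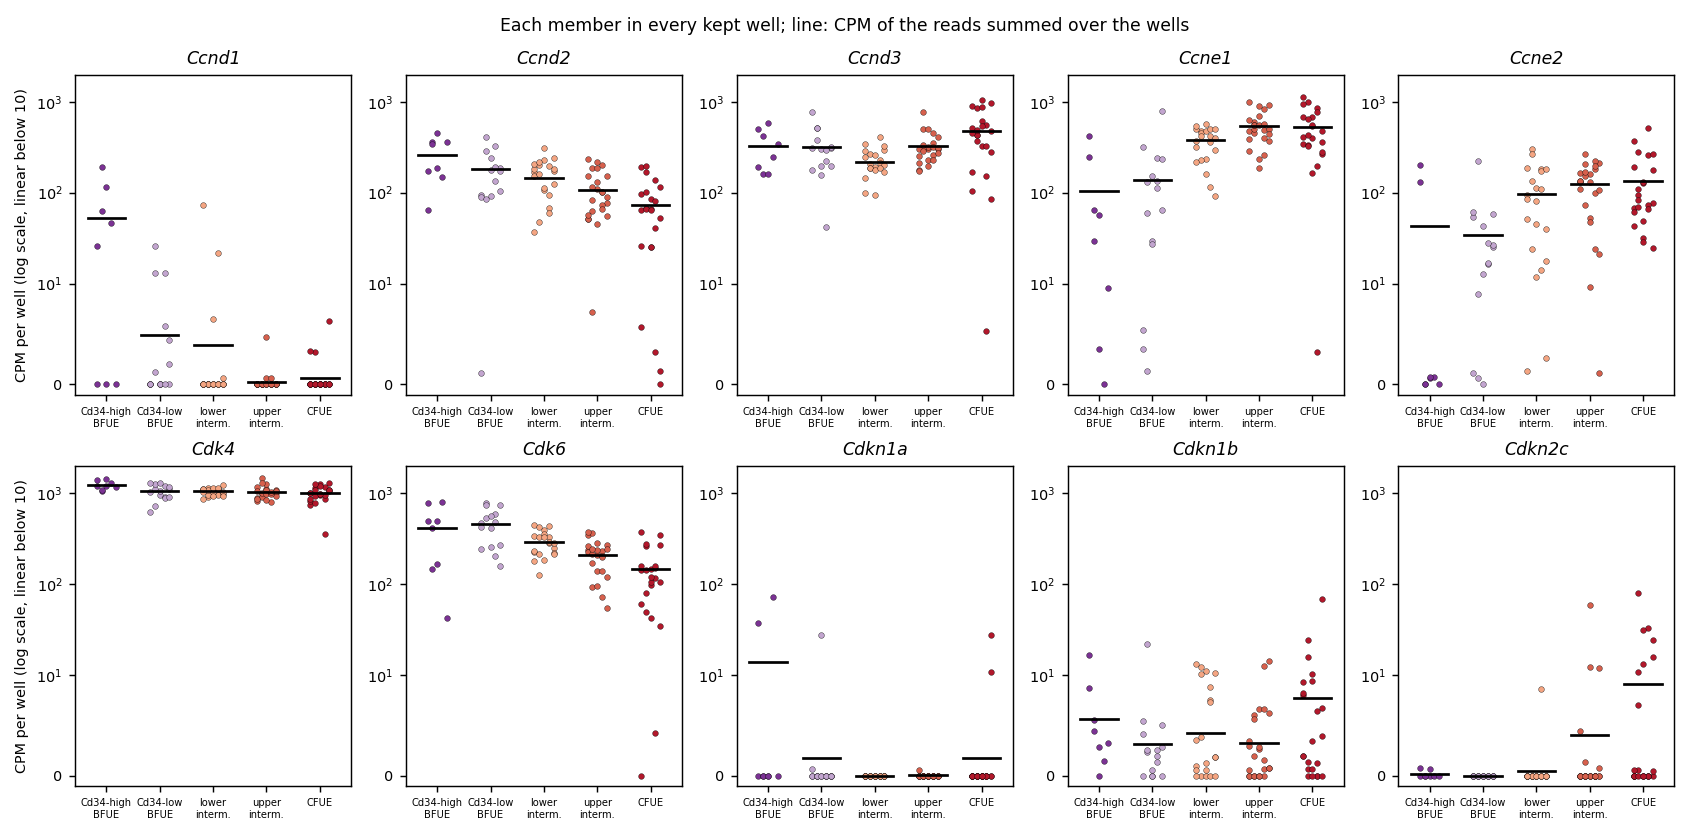
CPM of each of the 10 genes in every kept well (points) and in the reads summed over the wells (line), for the Cd34-high and Cd34-low BFUE wells, the lower and upper intermediate gates and CFUE; the vertical axis is logarithmic above 10 CPM and linear below. Cdk4 lies near 1000 CPM in all groups, Ccnd2 and Cdk6 are lowest in CFUE, Ccne1 is higher from the lower intermediate gate on, and the inhibitors are at 0 in most wells or near it.

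Measured against the Cd34-low BFUE wells, the CFUE wells had more Ccne1, Ccne2 and Ccnd3 and less Ccnd2 and Cdk6, while Cdk4 differed little. Of the 6 genes at 10 CPM or more in either group, 3 were 1.5-fold or more higher and 2 were 1.5-fold or more lower. Over all 8246 genes measured in this way, 13.6% were higher and 24.9% were lower by that fold. The median log2 ratio of the 6 genes was 0.27, against -0.11 over all genes. Against the whole BFUE gate, 3 of 7 measured genes were higher and 3 were lower, where 13.7% of all genes were higher and 29.6% lower. The gene added there is Ccnd1, which passed the minimum through the BFUE wells alone and so could only be lower in CFUE. Ccnd3 was at 1.51-fold there, and under 1.5-fold without its top wells A12 and D1 (log2 ratio 0.55).

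The E-type cyclins differed most in the first step, and Ccnd2 and Cdk6 in several small ones. In lower intermediate wells against Cd34-low BFUE wells, Ccne1 and Ccne2 were higher and Cdk6 was lower among 6 measured genes, where 9.54% of all genes were higher and 17.7% lower by 1.5-fold. Cdk6 was 1.60-fold lower there, with log2 ratios of -0.90 in the upper plate rows and -0.43, within 1.5-fold, in the lower ones. In upper against lower intermediate wells none of 6 was 1.5-fold or more apart, where 7.34% of all genes were higher and 9.27% lower. In CFUE against upper intermediate wells again none of 6 was, where 7.98% of all genes were higher and 9.7% lower. Several genes came close to the limit in these steps, with Ccnd3 at 1.496-fold higher in the upper than in the lower intermediate and at 1.475-fold higher in CFUE than in the upper intermediate. With TMM factors in place of total reads, Ccnd3 was past 1.5-fold in both steps, and without D10 it was so in CFUE against the upper intermediate (log2 ratio 0.60). Markers of other lineages differed in the same comparison. In CFUE wells against Cd34-low BFUE wells, megakaryocyte markers summed to 34.7 and 189 CPM, with 1 and 4 of 5 at 10 CPM or more and Pf4 at 0 in both. Most of the 189 CPM was Itga2b, at 2.37 CPM in CFUE and 148 CPM in Cd34-low BFUE. Gp1ba and Vwf were also lower in CFUE, at 9.93 and 8.15 CPM against 16.3 and 12.7 CPM. Gp9 went the other way, at 14.3 CPM in CFUE and 12.5 CPM in Cd34-low BFUE. Mast cell and basophil markers summed to 0.395 and 237 CPM, nearly all of it Gata2, with Mcpt8 and Ms4a2 at 0 in both, and the 4 stem and multipotent markers without Cd34 to 2.43 and 131 CPM. Their part in the results was not tested. The comparisons share groups of wells, so their values are not independent of each other.

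**Figure D2:**
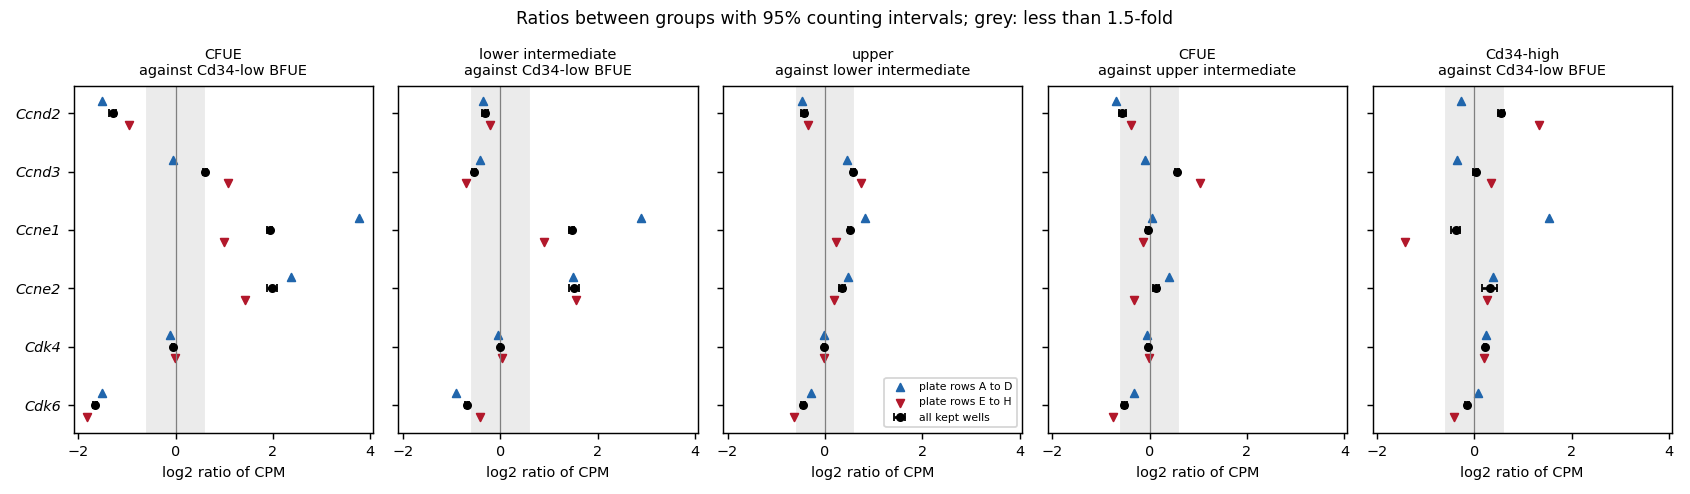
Log2 ratio of CPM between groups for the 6 genes measured in all groups, with exact 95% counting intervals (black), and the same in each set of plate rows (triangles); the grey band marks less than 1.5-fold. Ccne1 and Ccne2 lie right of the band in both comparisons of a later gate with Cd34-low BFUE, Cdk4 lies near 0 throughout, and Ccnd3 in CFUE differs between the sets of plate rows.

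Ccnd3, the D-type cyclin most abundant per length in every group, was at 324 CPM in Cd34-high BFUE wells, 318 CPM in Cd34-low BFUE wells, 218 CPM in lower intermediate wells, 326 CPM in upper intermediate wells and 481 CPM in CFUE wells. Single wells ran from 42.0 to 778 CPM in Cd34-low BFUE (median 301 CPM), from 94.9 to 414 CPM in the lower intermediate (median 206 CPM), from 173 to 766 CPM in the upper intermediate (median 301 CPM) and from 5.28 to 1049 CPM in CFUE (median 454 CPM). The wells of all groups overlapped, and the lowest level was that of the lower intermediate gate, not of either end. CFUE was 1.51-fold higher than Cd34-low BFUE (interval 1.48 to 1.56).

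The Ccnd3 difference was seen in the lower plate rows only. In CFUE wells Ccnd3 was at 325 CPM in the upper rows and at 622 CPM in the lower ones, against 338 and 297 CPM in the same rows of Cd34-low BFUE. The log2 ratio was thus -0.06 in the upper rows and 1.07 in the lower ones. Leaving out the well with most Ccnd3 in each group (A12 of CFUE, D1 of BFUE) brought the log2 ratio to 0.58, just under the 1.5-fold limit, and leaving out D10 brought it to 0.64. Slc4a1 (band 3, the anion exchanger of the red cell membrane), a gene of more mature cells, also differed between these rows of the CFUE gate, with 65.4 CPM in the upper rows and 257 CPM in the lower ones.

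Across the 22 CFUE wells other than D10, Ccnd3 and Slc4a1 went together (Pearson r = 0.78, Spearman rho = 0.83, of log2 of CPM plus 10). With D10 in the set, r was 0.44 and rho 0.75. The 5 wells with most Ccnd3 had 856 to 1049 CPM of it and 411 to 632 CPM of Slc4a1, whereas the other 18 wells had at most 609 CPM of Ccnd3 and at most 238 CPM of Slc4a1. These 5 wells do not overlap with the rest in Slc4a1. The wells share a plate and a sort, and the relation was looked at after the values had been seen.

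Ccnd2, a D-type cyclin induced by cytokines in blood cells, went the other way. It was at 262 CPM in Cd34-high BFUE wells, 180 CPM in Cd34-low BFUE wells, 146 CPM in lower intermediate wells, 108 CPM in upper intermediate wells and 73.4 CPM in CFUE wells. CFUE was 2.45-fold lower than Cd34-low BFUE (interval 2.34 to 2.57), and both sets of plate rows showed it, with log2 ratios of -1.51 in the upper rows and -0.95 in the lower ones. No single step reached 1.5-fold, and neighbouring groups overlapped between their sets of plate rows except CFUE and the upper intermediate. Single CFUE wells ran from 0 to 198 CPM (median 66.0 CPM), and single Cd34-low BFUE wells from 1.17 to 406 CPM (median 174 CPM), so cells of both groups held a wide and shared range.

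Ccnd1, the D-type cyclin of many growth factor responses in other tissues, was highest in the Cd34-high wells. It was at 52.5 CPM there, at 4.88 CPM in Cd34-low BFUE wells, 3.93 CPM in lower intermediate wells, 0.247 CPM in upper intermediate wells and 0.649 CPM in CFUE wells. Of the Cd34-high wells, 5 of 8 had 10 or more reads of Ccnd1, at 26.1, 45.9, 62.4, 116 and 193 CPM, and the other 3 had none. In the lower intermediate gate a single well, D5, held 66.4% of the 122 reads. In CFUE well D11 held 13 of 23 reads.

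In Cd34-high against Cd34-low BFUE wells, Ccnd1 was 10.8-fold higher (interval 8.88 to 13.1), with log2 ratios of 2.91 in the upper rows and 5.28 in the lower ones. Over the deepest wells alone, 3 Cd34-high and 12 Cd34-low, it was 2.36. It was 1 of 2 genes of 8 measured that were 1.5-fold or more higher, with none lower, where 30.4% of all genes were higher and 25.4% lower by that fold. The other was Cdkn1a, and both passed the 10 CPM minimum through the Cd34-high wells alone, so they could only be higher there. The same wells carried markers of other lineages, namely 4 of 4 stem and multipotent markers other than Cd34, which made the split, at 10 CPM or more (summed 591 to 2067 CPM per well). In Cd34-low wells 2 of these 4 were at 10 CPM or more (0.594 to 819.6 CPM per well). The Cd34-high wells also carried 4 of 7 neutrophil and monocyte markers (294 to 7205 CPM per well, against 1.32 to 88.7 CPM), with Elane and Ly6c2 at 0 in both groups, and 2 of 6 lymphoid markers (0.576 to 1579 CPM, against 0 to 5.58 CPM), with Dntt and Cd3e at 0 in both. The part of these markers in the Ccnd1 difference was not tested. Ccnd1 shares 1100 exonic bases with LTO1 on the opposite strand, and the strand setting of the counting is not given in the sources used here, so reads in that stretch cannot be told apart.

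Per kilobase of merged exons, which allows genes to be compared, the share of Ccnd3 among the D-type cyclins was highest in CFUE. It was lowest in the Cd34-high BFUE wells, which had little Gata1, and did not rise from Cd34-low BFUE to the lower intermediate. Ccnd3 made up 48.6% of the summed D-type cyclin CPM per kb in Cd34-high BFUE wells, 64.2% in Cd34-low BFUE wells, 60.4% in lower intermediate wells, 76.3% in upper intermediate wells and 87.3% in CFUE wells. Ccnd2 made up 36.7, 34.0, 37.6, 23.6 and 12.4% in the same order, and Ccnd1 14.7% in Cd34-high BFUE and 2.03% or less elsewhere. In CFUE the share of Ccnd3 was 81.0% in the upper rows and 90.7% in the lower ones. In the same rows of Cd34-low BFUE it was 59.5 and 70.7%. The sets of plate rows of these groups thus did not overlap, whereas their single wells did. In wells with reads of both genes, the log2 ratio of Ccnd3 over Ccnd2 per kb ran from -2.85 to 7.34 in Cd34-low BFUE. In CFUE it ran from -0.34 to 9.59. The summed level of the 3 genes itself was 75.9, 56.4, 41.2, 48.7 and 62.8 CPM per kb from Cd34-high BFUE to CFUE, lowest in the lower intermediate.

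The same order held in single cells. Ccnd3 was above Ccnd2 per kb in 21 of 22 CFUE wells with 10 or more reads of either gene (95.5%, exact binomial interval 77.2 to 99.9%), against 13 of 15 Cd34-low BFUE wells (86.7%, interval 59.5 to 98.3%). It was so in 6 of 8 Cd34-high BFUE wells, 18 of 21 lower intermediate wells and 23 of 24 upper intermediate wells. The intervals of these shares overlap. The size of the lead differed more, with a median log2 ratio of Ccnd3 over Ccnd2 per kb of 2.77 in CFUE, 1.81 in the upper and 0.54 in the lower intermediate, 0.85 in Cd34-low BFUE and 0.32 in Cd34-high BFUE. Ccnd3 shares 361 exonic bases with Bysl on the opposite strand, with the same limit as for Ccnd1.

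**Figure D3:**
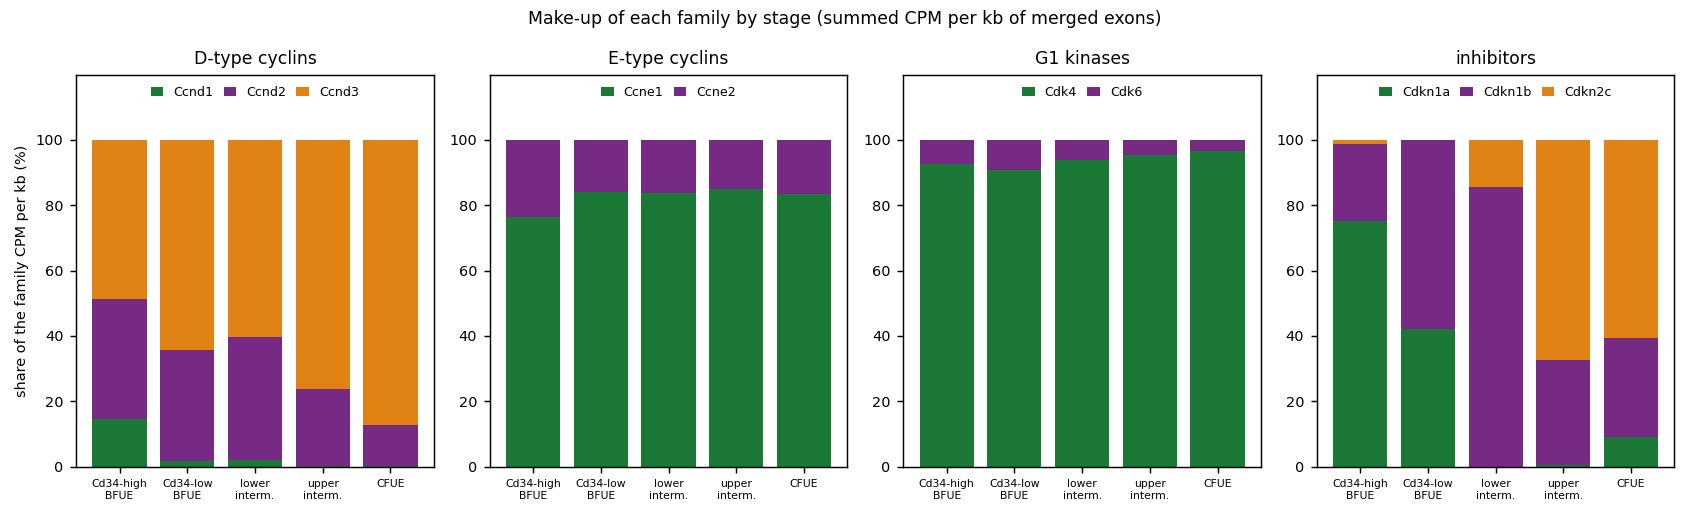
Share of each gene in the summed CPM per kb of merged exons of its family, for D-type cyclins, E-type cyclins, G1 kinases and inhibitors, in the 5 groups of wells. Ccnd3 makes up 48.6% of the D-type cyclins in Cd34-high BFUE, 64.2% in Cd34-low BFUE and 87.3% in CFUE. Ccne1 and Cdk4 lead their families in every group, and the leading inhibitor differs between groups.

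Ccne1, the E-type cyclin that binds Cdk2 at the start of S phase, was at 105 CPM in Cd34-high BFUE wells, 138 CPM in Cd34-low BFUE wells, 380 CPM in lower intermediate wells, 539 CPM in upper intermediate wells and 524 CPM in CFUE wells. Lower intermediate wells were 2.76-fold higher than Cd34-low BFUE wells (interval 2.66 to 2.86), and CFUE wells 3.81-fold higher (interval 3.68 to 3.95). In single wells it ran from 1.32 to 793 CPM in Cd34-low BFUE (median 113 CPM), from 92.0 to 571 CPM in the lower intermediate (median 397 CPM), from 186 to 985 CPM in the upper intermediate (median 505 CPM) and from 3.17 to 1117 CPM in CFUE (median 434 CPM). The lowest CFUE value is that of D10, and the next is 166 CPM.

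Ccne1 varied more from cell to cell in BFUE than in the later gates. In Cd34-low BFUE the SD over wells was 131% of the mean, against 39.4% in the lower intermediate, 40.3% in the upper intermediate and 55.8% in CFUE (50.3% without D10). The size of the difference depended on the plate rows. In CFUE wells Ccne1 was at 588 CPM in the upper rows and 468 CPM in the lower ones, against 43.0 and 234 CPM in the same rows of Cd34-low BFUE, with log2 ratios of 3.77 and 0.997. The well H3 held 32.9% of the Cd34-low reads. The direction was the same in both.

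Ccne2, the second E-type cyclin, was at 42.6 CPM in Cd34-high BFUE wells, 34.3 CPM in Cd34-low BFUE wells, 97.8 CPM in lower intermediate wells, 124 CPM in upper intermediate wells and 135 CPM in CFUE wells. CFUE was 3.95-fold higher than Cd34-low BFUE (interval 3.68 to 4.25), and the lower intermediate 2.85-fold higher (interval 2.65 to 3.08), in the same direction in both sets of plate rows. Single wells ran from 0 to 221 CPM in Cd34-low BFUE (median 24.9 CPM) and from 24.7 to 512 CPM in CFUE (median 82.6 CPM). The groups overlapped, and the highest CFUE value is that of D10. Without D10 the log2 ratio of CFUE over Cd34-low BFUE was 1.87, against 1.98 with it.

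Both E-type cyclins were higher in the later gates, and the summed proportions of the pair stayed close. Per kb, Ccne1 made up 83.6% of the family in CFUE, 85.1% in the upper and 83.6% in the lower intermediate, 84.1% in Cd34-low BFUE and 76.4% in Cd34-high BFUE. Within Cd34-low BFUE, Ccne2 made up 40.2% in the upper plate rows and 8.995% in the lower ones. Ccne1 was above Ccne2 per kb in 22 of 23 CFUE wells, all 24 upper intermediate wells, 20 of 21 lower intermediate wells and 11 of 14 Cd34-low BFUE wells with 10 or more reads of either gene. The 1 CFUE well with more Ccne2 was D10. The summed level of the family was 236 CPM per kb in CFUE and 61.5 CPM per kb in Cd34-low BFUE. Ccne2 shares 609 exonic bases with Ints8 on the opposite strand.

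Cdk4, the more abundant G1 kinase, hardly differed between groups, at 1222 CPM in Cd34-high BFUE wells, 1050 CPM in Cd34-low BFUE wells, 1046 CPM in lower intermediate wells, 1032 CPM in upper intermediate wells and 1009 CPM in CFUE wells. The log2 ratio of CFUE over Cd34-low BFUE was -0.06, and 0.05 with TMM factors, so its sign depends on the scaling. Those factors moved the ratios of all genes in this comparison by 0.11. Cdk4 was also the most even of the 6 genes from cell to cell, with an SD over wells of 9.48% of the mean in the lower intermediate and 20.97% in CFUE (15.5% without D10). The SD of Cdk6 was 31.0% and 72.5% of its mean in the same groups. Cdk4 shares 641 exonic bases with Tspan31 on the opposite strand.

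Cdk6, the kinase tied to stem and progenitor cells in blood, was at 417 CPM in Cd34-high BFUE wells, 462 CPM in Cd34-low BFUE wells, 289 CPM in lower intermediate wells, 211 CPM in upper intermediate wells and 147 CPM in CFUE wells. CFUE was 3.15-fold lower than Cd34-low BFUE (interval 3.05 to 3.25), with log2 ratios of -1.51 in the upper rows and -1.81 in the lower ones. From the lower intermediate on, both sets of rows of a gate lay above both of the next gate. Single wells ran from 156 to 774 CPM in Cd34-low BFUE (median 465 CPM), 126 to 446 CPM in the lower intermediate (median 286 CPM), 54.5 to 369 CPM in the upper intermediate (median 220 CPM) and 0 to 370 CPM in CFUE (median 119 CPM). The wells overlapped between all groups, and the CFUE wells with least Cdk6 lay below every Cd34-low BFUE well.

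The lead of Cdk4 over Cdk6 therefore widened without a switch. Cdk4 was above Cdk6 per kb in every one of the 91 wells. Cdk6 made up 3.27% of the kinase CPM per kb in CFUE, 4.53% in the upper and 6.03% in the lower intermediate, 9.27% in Cd34-low BFUE and 7.34% in Cd34-high BFUE. The median log2 ratio of Cdk4 over Cdk6 per kb was 5.14 in CFUE and 3.37 in Cd34-low BFUE. Within the CFUE gate, Cdk6 went against globin: its r with Hba-a1 was -0.65 and its rho -0.75 over 23 wells (-0.66 and -0.74 without D10), and with Slc4a1 its r was -0.35 and its rho -0.59. The 5 CFUE wells with most Ccnd3 had 42.7 to 105 CPM of Cdk6, where the other 18 had 0 to 370 CPM. Ccnd2 leaned the same way, with an r of -0.57 with Hba-a1 over the 23 wells and -0.54 without D10.

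**Figure D4:**
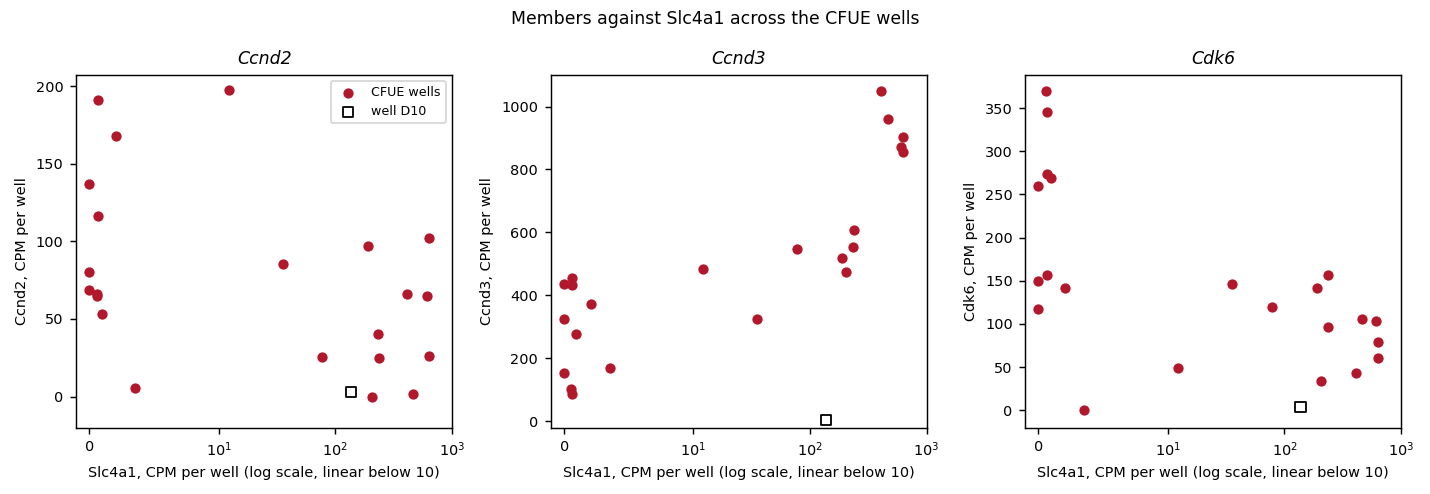
CPM of Ccnd2, Ccnd3 and Cdk6 against CPM of Slc4a1 in each of the 23 CFUE wells; the horizontal axis is logarithmic above 10 CPM and linear below, and the open square is well D10. The 5 wells with 856 to 1049 CPM of Ccnd3 are those with 411 CPM or more of Slc4a1, and they have at most 105 CPM of Cdk6.

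The promoter sequences of the kinases are given as a description, and their part in the levels of the genes was not tested. Entries for 7 of the 10 genes were found in the RefSeq promoter table of GRCm38.p6 (Ccnd1, Ccnd2 and Ccne2 had none), and the 250 bases before each start were searched on both strands. Capitals mark CACGTG, the E-box that Myc and related factors bind. The windows are chr10:127063285-127063534 (plus strand) for Cdk4 and chr5:3343643-3343892 (plus strand) for Cdk6, both 5′ to 3′ and ending at the base before the start in the RefSeq table. That start is the base after the first GENCODE base for Cdk4, and for Cdk6 it lies inside the GENCODE gene, downstream of its first base.
Cdk4: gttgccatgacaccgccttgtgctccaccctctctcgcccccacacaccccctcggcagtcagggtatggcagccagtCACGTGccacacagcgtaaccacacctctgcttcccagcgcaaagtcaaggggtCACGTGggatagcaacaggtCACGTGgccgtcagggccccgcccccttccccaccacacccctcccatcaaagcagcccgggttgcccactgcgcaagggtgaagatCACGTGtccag
Cdk6: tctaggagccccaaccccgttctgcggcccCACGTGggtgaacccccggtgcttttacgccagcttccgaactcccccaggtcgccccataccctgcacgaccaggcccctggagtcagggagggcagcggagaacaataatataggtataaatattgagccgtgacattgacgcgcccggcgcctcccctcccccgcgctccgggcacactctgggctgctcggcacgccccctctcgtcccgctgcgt

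The Cdk4 window holds 4 E-boxes, which begin 172, 118, 98 and 11 bases before the start, and the Cdk6 window holds 1, which begins 220 bases before it. Of 32851 promoter windows of this length, 6.02% held the word at least once and 7 windows held it 4 times or more. In human cells the E-boxes of the CDK4 promoter are known to be bound by MYC. Myc itself was at 404 CPM in CFUE wells and 908 CPM in Cd34-low BFUE wells, 2.25-fold lower in CFUE (interval 2.20 to 2.29). No E2F word (TTTCCCGC, TTTGGCGC, TTTCGCGC or TTTGCCGC, in 1.86% of all windows) and no GATA word (AGATAA or TGATAA, in 16.6%) was in any window of the 7 genes. CCAAT, in 33.8% of all windows, was found 2 times in the Cdkn1b window and 1 time in 1 of 2 Ccnd3 windows. A match is a description of the letters and no site. The part of Myc in the levels of Cdk4 and Cdk6 was not tested.

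The inhibitors were scarce throughout, at 13.8 CPM or less in every group, and most of their reads came from few cells. Cdkn2c, which blocks Cdk4 and Cdk6, had nearly all of its reads in the upper intermediate and CFUE. It had 323 reads in CFUE (9.11 CPM, interval 8.14 to 10.2), 146 reads in the upper intermediate (4.01 CPM), 13 reads in the lower intermediate, all in well E6, 0 reads in Cd34-low BFUE and 2 reads in Cd34-high BFUE. Taken against 3 reads over the group, CFUE was 79.6-fold higher than Cd34-low BFUE, and the lower limit of the exact interval was 64.4. Both groups were under the minimum of 10 CPM.

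Few cells carried it. Of the CFUE wells, 8 of 23 had 10 or more reads of Cdkn2c, at 6.96, 10.8, 13.3, 15.5, 24.0, 31.4, 33.0 and 78.7 CPM, and 12 had none. Of the upper intermediate wells, 3 of 24 had 10 or more reads, at 11.8, 12.1 and 59.0 CPM. The highest well held 35.9% of the CFUE reads and 70.5% of those of the upper intermediate. CFUE was higher than the upper intermediate in both sets of plate rows, by 2.27-fold overall (interval 1.86 to 2.78). Without the upper intermediate well H8 it was 7.35-fold higher (interval 5.33 to 10.3), and 4.91-fold without the CFUE well F12 as well. Per kb, Cdkn2c was above Cdkn1b in 7 of 13 CFUE wells and in 3 of 9 upper intermediate wells with 10 or more reads of either. Its r with Slc4a1 across CFUE wells was 0.25, and with the S phase and G2/M scores across all wells 0.17 and 0.10.

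Cdkn1a, a p53 target that blocks Cdk2, was found in single cells. It had 165 reads in Cd34-high BFUE (13.8 CPM), of which 60.6% came from well C2 and the others from well E3, and 47 reads in Cd34-low BFUE (1.79 CPM), of which 46 came from well A3. It had 0 reads in the lower intermediate, 1 read in the upper intermediate and 63 reads in CFUE (1.78 CPM), 41 of them in well G12 and 22 in well D11. Cd34-high BFUE was 7.68-fold higher than Cd34-low BFUE (interval 5.53 to 10.9). With so few cells behind each sum, the difference rests on wells C2, E3 and A3. Without the well with most reads in each group, C2 and A3, Cd34-high BFUE still had the reads of E3 (37.5 CPM in that well), and Cd34-low BFUE had 1 read.

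Cdkn1b, which restrains Cdk2 in resting and maturing cells, was low in all groups. It was at 5.60 CPM in Cd34-high BFUE wells, 3.17 CPM in Cd34-low BFUE wells, 4.22 CPM in lower intermediate wells, 3.27 CPM in upper intermediate wells and 7.70 CPM in CFUE wells. Groups next to each other in level overlapped between their sets of plate rows. Of the CFUE reads, 36.6% came from well G12, at 67.5 CPM, the well that also had the most Cdkn1a of the gate and 15.5 CPM of Cdkn2c. G12 was thus the only kept well with 10 or more reads of each of the 3 inhibitors. It had 0 CPM of Ccnd2 and 34.4 CPM of Cdk6.

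Per kb, Cdkn1a made up 75.02% of the summed inhibitor level in Cd34-high BFUE, Cdkn1b 58.0% in Cd34-low BFUE and 85.6% in the lower intermediate, and Cdkn2c 67.3% in the upper intermediate and 60.7% in CFUE. The summed level was 5.17, 1.20, 1.08, 2.22 and 5.58 CPM per kb in this order of groups. These sums rest on the single wells described above. Without H8 the upper intermediate had 43 reads of Cdkn2c and 114 of Cdkn1b. In the lower intermediate the share of Cdkn1b was 100% in the upper rows and 59.2% in the lower ones.

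Within groups, both E-type cyclins went with the S phase score, and Cdk4 and Ccnd3 did so less without D10. A score was the mean log2 of CPM plus 10 over 25 S phase genes or 24 G2/M genes, and gene and score were each centred on the mean of their group over 91 wells. Ccne1 had an r of 0.72 and a rho of 0.60 with the S phase score, and 0.63 for r without D10. Ccne2 had an r of 0.48 and a rho of 0.62, and 0.72 for r without D10. By group, from Cd34-high BFUE to CFUE, the r of Ccne2 was 0.98, 0.79, 0.68, 0.62 and -0.16, and that of Ccne1 0.87, 0.55, 0.56, 0.76 and 0.84. In CFUE, with D10 in the set, Cdk4 was at 0.82 and Ccnd3 at 0.70. With the G2/M score, Cdk4 was at 0.48 and Ccnd3 at 0.73 in the same wells. All values for CFUE alone in this paragraph include D10, the CFUE well with the highest Ccne2. These values were not computed without D10, so they may rest on that well. Ccne2 also went against the G2/M score, with an r of -0.47 (-0.44 without D10), and this was negative in Cd34-low BFUE, both intermediates and CFUE (-0.51, -0.72, -0.87 and -0.87) and 0.29 over the 8 Cd34-high wells.

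Other members followed the scores weakly or through D10. Cdk4 had an r of 0.55 with the S phase score, which was 0.33 without D10. Ccnd3 had 0.45, and 0.19 without D10. Ccnd2 was at 0.03 and Cdk6 at 0.31 with the S phase score, and at -0.13 and 0.14 without D10. The r of each gene with the log2 reads of the well, centred on each group, lay between -0.17 and 0.33, highest for Cdk4. Within CFUE, with D10 in the set, it was 0.76 for Cdk4, 0.69 for Ccne1, 0.67 for Cdk6 and 0.52 for Ccnd3. The other members lay between -0.19 and 0.39 there. The part of depth in the CFUE values was not tested. The points share plate, sort and depth, and these correlations are a description.

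**Figure D5:**
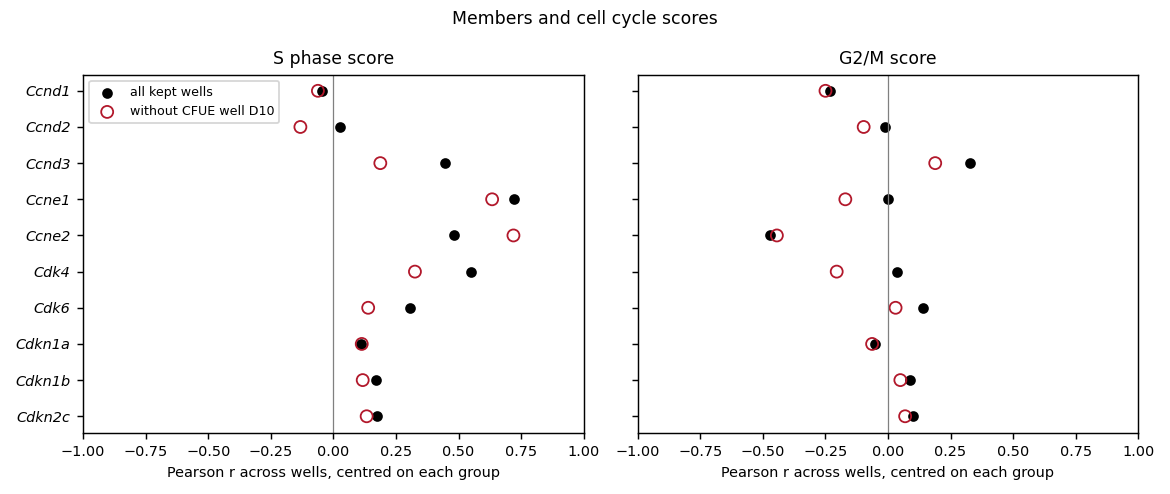
Pearson r of each of the 10 genes with the S phase score and the G2/M score across wells, centred on each group, over all 91 kept wells (black) and without the CFUE well D10 (open circles). Ccne1 and Ccne2 have the highest r with the S phase score when D10 is left out, at 0.63 and 0.72, and Ccne2 has the lowest r with the G2/M score.

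The genes most like each member across wells differed between families. Over 6043 genes and 91 wells, centred in the same way, Ccne2 was most like Rrm2 (r = 0.70), Ung (0.58) and Hells (0.58), of which Rrm2, the small subunit of ribonucleotide reductase, and Ung, a uracil glycosylase, belong to the S phase list. Ccne1 was most like Rpa2 (0.72), a subunit of the single-strand DNA binding complex, Exo1 (0.65), an exonuclease, and Slc29a1 (0.63), a nucleoside transporter. Cdk6 was most like Mybbp1a (0.61), Sypl (0.60) and Ubxn4 (0.60), and Ccnd2 like Zfp622 (0.54), Ino80e (0.51) and Gcsh (0.50). Without D10 these 12 values lay between 0.46 and 0.73. They are the highest of 6043 genes and so high by choice. With D10, the 99th percentile of absolute r was 0.38 for Ccne2, 0.49 for Ccne1, 0.50 for Cdk6 and 0.40 for Ccnd2.

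For Ccnd3 and Cdk4 the likeness rested on D10. Ccnd3 was most like Gabarap (r = 0.63), Tpm3 (0.62) and Ppp1ca (0.61), and without D10 these were at 0.43, 0.36 and 0.27. Cdk4 was most like Fkbp4 (0.67), Slc35a4 (0.66) and Psmc5 (0.66), and without D10 these were at 0.38, 0.43 and 0.36. With D10, the 99th percentile of absolute r was 0.53 for Ccnd3 and 0.54 for Cdk4. Among the members themselves, Ccne1 and Ccne2 had an r of 0.39 with each other, and 0.55 without D10. No other pair of members was above 0.30 or below -0.30 without D10.

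The surrounding network was counted in CFUE against Cd34-low BFUE wells. Of 30 other G1 genes 24 were measured, with 6 higher and 4 lower by 1.5-fold or more and a median log2 ratio of -0.00, against -0.11 over all genes. Over all genes in this comparison 13.6% were higher and 24.9% lower, which also stands beside the counts of the lists below. E2f4, an E2F factor that works with pocket proteins, was at 253 CPM in CFUE and 95.4 CPM in Cd34-low BFUE, and Cdkn3, a phosphatase that acts on Cdk2, at 44.9 and 20.3 CPM. E2f7, a repressing E2F, was lower, at 12.3 CPM in CFUE and 27.8 CPM in Cd34-low BFUE, as was Myc.

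Of 25 S phase genes all were measured, with 6 higher and none lower and a median log2 ratio of 0.26. Rrm2 was at 1005 CPM in CFUE and 290 CPM in Cd34-low BFUE, 3.47-fold higher (interval 3.38 to 3.56), and Cdc6, a licensing factor of replication origins, at 327 and 166 CPM. Slbp, which binds histone messages, was at 465 and 282 CPM, and Rrm1, the large subunit of ribonucleotide reductase, at 1527 and 951 CPM. Of 24 G2/M genes 6 were higher and none lower, with a median log2 ratio of 0.37. Among them were the mitotic kinase Aurka, at 307 CPM in CFUE and 140 CPM in Cd34-low BFUE, and the cyclin Ccnb1, at 577 and 301 CPM. Kif23, a kinesin of cytokinesis, was at 82.7 and 34.0 CPM, and Hmmr, a spindle protein, at 186 and 96.3 CPM.

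Target genes of p53, STAT5 and FoxO were counted in the same way. Of 17 p53 target genes, the class to which Cdkn1a belongs, 9 were measured, with 2 higher and 2 lower and a median log2 ratio of 0.20. Phlda3, an inhibitor of Akt, passed the minimum through CFUE alone, at 14.8 CPM in CFUE and 7.40 CPM in Cd34-low BFUE, and the small ribosomal protein gene Rps27l at 644 and 420 CPM. Ei24, an autophagy gene, was at 22.4 and 38.0 CPM, and Aen, a nuclease, at 93.7 and 144 CPM. Of 9 STAT5 target genes 2 were measured, of which Bcl2l1, the survival factor Bcl-xL, was higher, at 30.6 CPM in CFUE and 17.02 CPM in Cd34-low BFUE. Socs2, a feedback inhibitor of cytokine signalling, was at 10.7 and 8.55 CPM, 1.25-fold higher, and also passed through CFUE alone.

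Of 9 FoxO target genes 3 were measured, of which 2 were lower and none higher. Txnip, a regulator of thioredoxin and glucose uptake, was at 56.7 CPM in CFUE and 200 CPM in Cd34-low BFUE. Pik3ip1, an inhibitor of PI3-kinase, had 0 reads in CFUE and 336 reads in Cd34-low BFUE. With the 0 reads taken as 3 reads over the group, Pik3ip1 was 152-fold lower, with 123 as the lower limit of the exact interval. It passed the minimum through Cd34-low BFUE alone and so could only be lower in CFUE. Cdkn1b is also a FoxO target, and was at 7.70 CPM in CFUE and 3.17 CPM in Cd34-low BFUE, both under the minimum of 10 CPM.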

How the data were processed

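The submitters' processing notes name STAR 2.4, GRCm38 and featureCounts. The table deposited by the authors holds unnormalised whole-number read counts for each gene and well. How featureCounts treated strand and shared reads, and from which annotation, is not given in the sources used here. Since the table's header starts with an extra blank name, column names were assigned by their order. Coordinates, exon lengths and overlaps came from GENCODE M21 of GRCm38.

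A well was kept if it held at least 50000 reads and 1000 genes, which 91 of 96 did. Doublets were not called, since 1 cell had been sorted into each. Counts were summed over the wells of a group and divided by its reads. With 1 sample per group no test was made. Genes were compared at 10 CPM or more in either group, 0 reads stood at 3 reads over the group, and differences of 1.5-fold or more were counted. Named genes were all members, up to 4 genes per list with the largest ratio of CFUE over Cd34-low BFUE in the same direction in both sets of plate rows, and the 3 most alike genes. Alternatives were TMM factors (edgeR 4.0.16), size factors (DESeq2 1.42.0), both in R 4.3.3, wells thinned to 500000 reads, the deepest wells, the upper or lower plate rows alone, the top well left out, other minimums, folds, splits, pseudocounts and lengths. Leaving out D10, the top Cdkn2c wells or Cd34 as a marker, and the relations within CFUE were chosen after seeing the data. The members and lists were chosen with earlier results of these data known. The script for ratios was tested on simulated Poisson counts with known folds. These hold no spread between wells, so the test does not show how the intervals perform on the real wells. Tables and figures were made in Python 3.11.15 (scipy 1.17.1, pandas 2.3.3, numpy 2.4.6, matplotlib 3.10.9).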

Additional observations from a re-analysis of the deposited data

Results flagged for a closer look

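Reads of 5 of the 10 genes were also present in the 5 wells left out for low depth, above the 3 reads that a count of 0 allows. The left-out BFUE well held 12 reads of Cdk4 and 5 reads of Cdk6, among 12472 reads in genes. The 3 left-out lower intermediate wells together held 49 reads of Cdk4, 17 of Ccne1, 13 of Ccnd3, 13 of Cdk6 and 6 of Ccnd2, among 43442 reads. The left-out CFUE well held 12 reads of Cdk4 and 5 reads of Ccne1, among 14286 reads. The source of these reads was not tested.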

How the results depend on the processing

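The 10-gene counts for CFUE against BFUE (6) and against Cd34-low BFUE (5) stayed within 1.5 times of themselves under the alternatives run, except that with no minimum level the second was 8. With no minimum it was 5 for lower intermediate against Cd34-low BFUE (3), and 2 and 4 for the later steps (0 each). In upper against lower intermediate the count was 1 with TMM factors, size factors, the deepest wells (1500000 or more reads) or rows A to D, and it was 2 in rows E to H. In CFUE against upper intermediate it was 1 with TMM factors, size factors, thinned wells, rows A to D or D10 left out, 2 with the top wells left out, and 4 in rows E to H. In Cd34-high against Cd34-low BFUE (2) it was 4 with thinned wells, the deepest wells or rows E to H, and 1 at 50 CPM or more; with the top wells left out it was 2, of which 1 was higher and 1 lower. Ccnd3 in CFUE against Cd34-low BFUE reversed in rows A to D (log2 ratio -0.058). Shares of wells with Ccnd3 above Ccnd2 came to 100% in rows E to H (both BFUE groups, upper intermediate, CFUE), in the deepest Cd34-high wells, and by longest transcript (upper intermediate, CFUE). Those with Ccne1 above Ccne2 came to 100% in rows E to H (Cd34-low BFUE, lower intermediate, CFUE), in the deepest lower intermediate and CFUE wells, and in CFUE without D10. Those with Cdkn1b above Cdkn1a came to 100% in CFUE (thinned wells, rows E to H) and to 0% in Cd34-high BFUE (thinned wells, rows E to H, deepest wells) and Cd34-low BFUE (thinned wells, deepest wells). These rest on few wells, and the cause was not tested. Of the log2 ratios, 319 moved by less than their counting interval, 202 by more, and 1 that was past 1.5-fold changed sign. Part of the 319 could not move, so this number does not measure robustness. Other minimums leave the ratio of a gene as it is, and no well lay between the Cd34 splits. Ratios under 1.5-fold changed sign 22 times, over 11 ratios, among them Cdk4 in both comparisons of a later gate with Cd34-low BFUE, Ccnd3 in CFUE against upper intermediate (-0.10 in rows A to D) and, in Cd34-high against Cd34-low BFUE, Ccnd2 (-0.28) and Ccne1 (1.53) in those rows. No paired analysis was possible because each gate is 1 sample, the plate positions number wells and not animals, and the results come from no test. Depth limits statements on the inhibitors, which had 0 to 323 reads per group.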
